A study of Mus musculus with 16 samples.

Results

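Zbtb16 and 8 further genes tied to glucocorticoid signalling were followed across 16 arrays of mouse ear skin. The 9 genes, Zbtb16, Fkbp5, Tsc22d3, Sgk1, Nr3c1, Hif3a, Klf9, Cdkn1a and Pdk4, were chosen by symbol out of 30943 named genes, and each has 1 transcript cluster on the array. Zbtb16 was selected on its difference in imiquimod effect between genotypes in these same arrays, so its values are given as a description and no test is applied to it. The other 8 genes were tested together with all named genes. They and the gene lists below were chosen with earlier results of these data known, which their p-values do not allow for. Their counts beside the shares of all genes are therefore a description.

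The ears came from wild-type C57BL/6J mice and from miR-146a-/- mice, which lack a microRNA that restrains inflammatory signalling below Toll-like receptors. All mice were 8 to 11 weeks old. On 3 days right ears were treated either with vehicle or with 31.25 mg of Aldara cream, which contains imiquimod (IMQ) at 5% and acts on Toll-like receptor 7, and they were collected on day 4. Each genotype was thus studied with vehicle and with IMQ, on 4 arrays per group. The knockout lacks the microRNA in every cell rather than in skin alone, and the labels name no glucocorticoid treatment and no hormone measurement. The sources used here do not state the hour of collection or what the vehicle was made of. Whether the 4 ears of a group came from separate mice is not stated either, so each p-value reflects only the variation among these ears.

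Glucocorticoids are adrenal steroids that bind the glucocorticoid receptor, the product of Nr3c1. The bound receptor leaves its chaperone complex, enters the nucleus and raises or lowers transcription, in part from glucocorticoid response elements, which are inverted repeats of a short half-site. In skin these hormones restrain inflammation, slow keratinocyte division and shift fuel use, and glucocorticoid creams are a common treatment of psoriasis. Zbtb16 encodes PLZF, a zinc finger repressor that glucocorticoids induce in many cells and that also directs the development of innate-like lymphocytes.

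The microRNA that the knockout lacks is shown first, from RefSeq (GRCm38.p6, chr11:43374435-43374456, minus strand), with its seed, bases 2 to 8, in capitals.
mmu-miR-146a-5p: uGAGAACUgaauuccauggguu
Promoters were read from RefSeq (GRCm38.p6) as the 300 bases around each start, 250 before and 50 after, on the gene's strand. For the 9 genes, 15 promoters of 7 genes were read. Promoters on the chromosome that carries Nr3c1 were left out, so Nr3c1 was not searched, and Zbtb16 had none. The search was for AGAACA, any 3 bases and TGTTCT, which reads the same on both strands, so that 1 search covers both. In each 15-base window 12 bases were compared. An exact copy is present in 3 of 32851 promoters (0.00913%) and a copy with at most 2 mismatches in 606 (1.84%). Sgk1, the classical glucocorticoid-induced kinase gene, held the only exact copy among the 15 promoters, at bases -189 to -175 of a promoter at chr10:21993640-21993939. A second of its 6 promoters, at chr10:21985854-21986153, held a copy with 2 mismatches at -183 to -169. Both are on the plus strand and are shown with the half-sites in capitals.
Sgk1, exact copy: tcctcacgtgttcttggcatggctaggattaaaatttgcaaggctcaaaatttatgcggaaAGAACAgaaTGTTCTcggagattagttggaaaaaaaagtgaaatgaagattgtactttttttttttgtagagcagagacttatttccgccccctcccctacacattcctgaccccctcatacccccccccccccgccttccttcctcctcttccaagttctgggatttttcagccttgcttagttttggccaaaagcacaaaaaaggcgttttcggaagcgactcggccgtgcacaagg
Sgk1, 2 mismatches: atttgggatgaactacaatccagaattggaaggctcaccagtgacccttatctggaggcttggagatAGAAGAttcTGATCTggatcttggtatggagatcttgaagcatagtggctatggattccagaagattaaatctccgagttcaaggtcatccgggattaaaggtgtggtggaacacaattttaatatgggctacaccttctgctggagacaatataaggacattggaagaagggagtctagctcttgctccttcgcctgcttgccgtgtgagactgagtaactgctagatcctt
Fkbp5, Tsc22d3, Klf9 and Pdk4, whose levels are described below with those of Zbtb16, hold no such copy in this window. Their closest 15 bases are shown with the matching bases in capitals, at chrX:140548778-140548792 for Tsc22d3, chr19:23141040-23141054 for Klf9, chr17:28486290-28486304 for Fkbp5 and chr6:5496422-5496436 for Pdk4 (plus strand for Klf9, minus strand for the other three).
Tsc22d3, 4 mismatches: cGAgCAgttTtTaCT
Klf9, 5 mismatches: gGAACggaacGgTCg
Fkbp5, 6 mismatches: tGAAgAggcgGagaT
Pdk4, 4 mismatches: gGAgCccaaaGTTCT
Windows with at most 4 mismatches occur in 57.0% of all promoters and those with at most 5 in 94.0%, so these 4 stretches are close to what any promoter holds. A match is a description of the letters and not a binding site.

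Levels are the authors' deposited log2 values, on which 1 unit is a doubling, and the array medians lay between 3.21 and 3.28. Levels of different genes are not compared, since probe sets differ in brightness. Arrays of a group correlated with their own group at a mean r of 0.960 to 0.975 across transcript clusters, and the lowest value belonged to knockout vehicle array 3. Genes of the labelled tissue were present: 14 of 15 measured genes of differentiated epidermis, 10 of 16 cartilage, 29 of 30 skeletal muscle and 18 of 20 adipocyte genes lay above the array median on all arrays. The miR-146a gene (symbol Mir146) lay below the array median on all arrays, with group means of 1.80 to 1.97, so it does not check the genotype labels. In ear tissue, fewer cells of a type and less RNA per cell cannot be told apart.

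In wild-type ears IMQ raised 3 of the 8 tested genes, Fkbp5, Tsc22d3 and Pdk4, and lowered 0 (limma, Benjamini-Hochberg adjusted p under 0.05, with 1 lower at an unadjusted p under 0.05). Over all genes 1.95% were called higher and 1.69% lower in this comparison. In knockout ears 2 of the 8 rose, Fkbp5 and Cdkn1a, and 3 fell, Nr3c1, Tsc22d3 and Klf9, where 8.07% of all genes were called higher and 6.91% lower. The IMQ effect itself differed between genotypes for Tsc22d3 and Klf9, both lower in the knockout, and for 0 of the 8 in the other direction (1 at an unadjusted p under 0.05), against 0.721% of all genes lower and 0.53% higher. The median log2 difference of the 8 genes was 0.42 in wild type and 0.14 in knockout ears, with a median of -0.02 over all genes in each. The shares of all genes given here stand beside the counts of the gene lists below too. At an unadjusted p under 0.05, both directions together, 14.3% of all genes passed for IMQ in wild type and 25% for IMQ in the knockout. The shares were 12.2% for genotype with vehicle, 8.24% for genotype with IMQ and 13.1% for the difference of effects. Every unadjusted count in this text stands beside these shares.

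**Figure D1:**
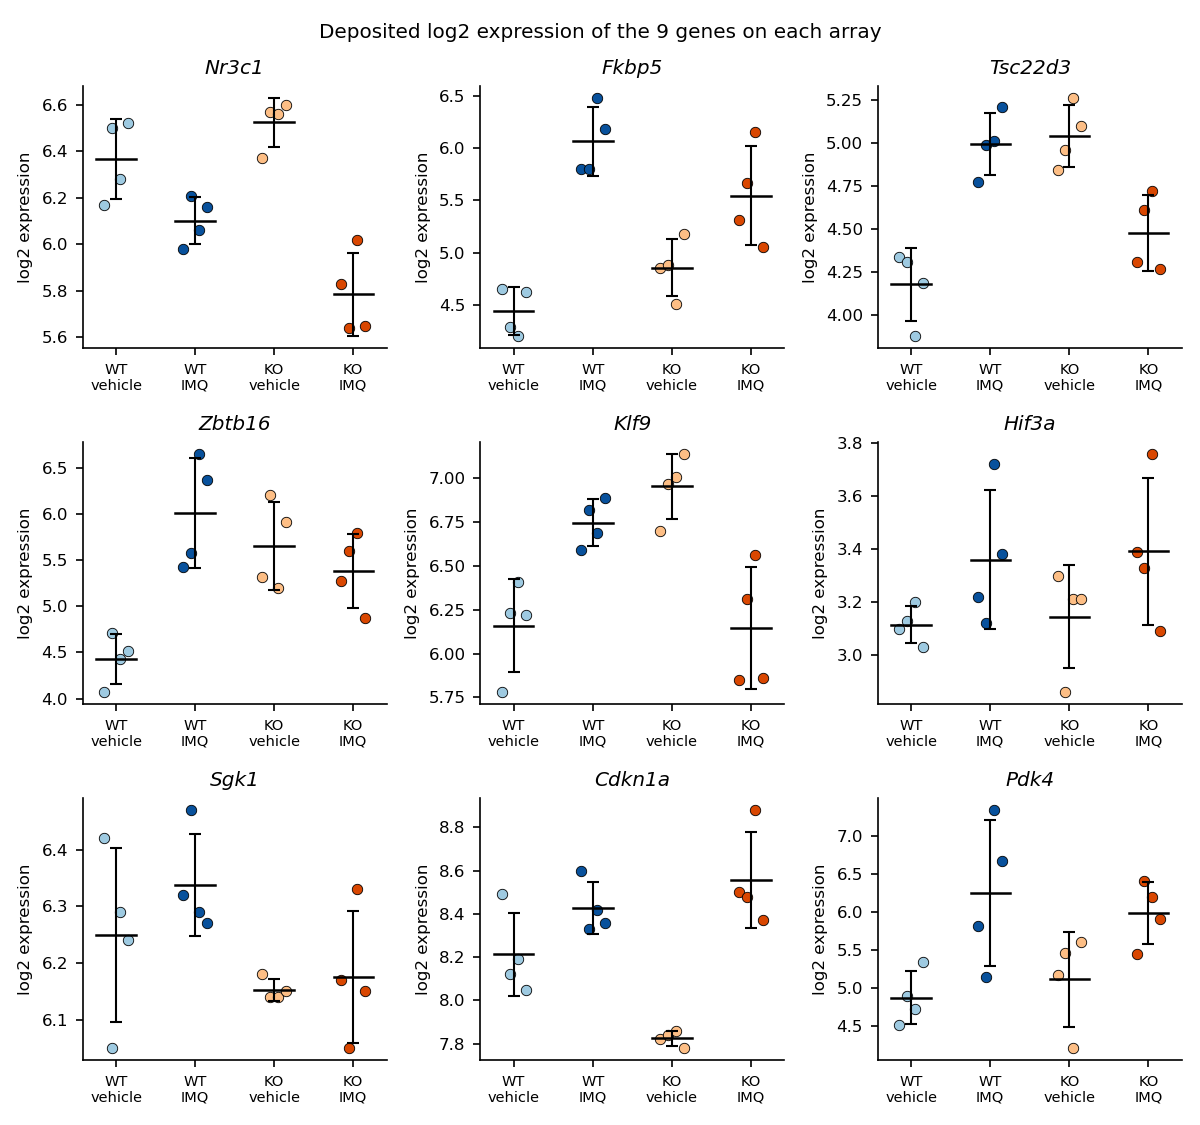
Deposited log2 level (y axis, a separate scale for each gene, not starting at 0) of the 9 genes on every array, by group on the x axis. Points are arrays, long bars are group means and whiskers are 1 SD (n = 4). For Tsc22d3 and Klf9 the wild-type IMQ and knockout vehicle arrays are the high ones, for Zbtb16 the wild-type vehicle arrays lie below all others, and Nr3c1 is lowest in knockout IMQ ears, whose mean is 5.78.

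The receptor gene itself, Nr3c1, read 6.17, 6.50, 6.28 and 6.52 on the wild-type vehicle arrays and 5.98, 6.21, 6.06 and 6.16 with IMQ. On the knockout arrays it read 6.37, 6.57, 6.56 and 6.60 with vehicle and 5.83, 5.64, 6.02 and 5.65 with IMQ. The knockout groups do not overlap, and all 4 knockout IMQ arrays lie below every vehicle array of either genotype. Nr3c1 fell by 0.74 ± 0.12 in knockout ears (SE; 1.67-fold, n = 4 and 4, adjusted p = 1.96e-04). In wild-type ears, whose groups overlap by 1 array each way, the difference was -0.27 ± 0.12 (adjusted p = 0.290). The effects differed between genotypes by -0.48 (95% interval -0.82 to -0.13, adjusted p = 0.188), so a difference in the fall of the receptor mRNA did not pass. Ranked by mean level the groups ran from knockout IMQ through wild-type IMQ and wild-type vehicle to knockout vehicle, and the ranges of each neighbouring pair overlap.

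Fkbp5 encodes FKBP51, a cochaperone that holds the receptor in a state of low hormone affinity and is itself induced by glucocorticoids. It read 4.65, 4.29, 4.20 and 4.62 in wild-type vehicle ears and 5.80, 5.80, 6.48 and 6.18 with IMQ. The IMQ arrays all lie more than 1 unit above the vehicle arrays. Fkbp5 rose by 1.63 ± 0.21 (3.08-fold, n = 4 and 4, adjusted p = 1.98e-04), the largest change of the 8 tested genes in either genotype. In knockout ears it read 4.85, 4.88, 4.51 and 5.18 with vehicle and 5.31, 5.67, 6.15 and 5.05 with IMQ. IMQ array 4 lies within the vehicle range, and the rise was 0.69 ± 0.21 (1.61-fold, adjusted p = 0.0332). This call was lost without any one of knockout vehicle arrays 1, 2 or 3 or knockout IMQ arrays 2 or 3 (adjusted p = 0.0601 to 0.130). The difference between the effects was -0.94 (95% interval -1.57 to -0.31, adjusted p = 0.143) and did not pass.

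Zbtb16 read 4.07, 4.71, 4.43 and 4.51 in wild-type vehicle ears and 5.43, 5.58, 6.65 and 6.37 with IMQ. In knockout ears it read 5.32, 6.20, 5.20 and 5.91 with vehicle and 5.27, 5.60, 5.79 and 4.87 with IMQ. The wild-type vehicle arrays stand alone at the bottom: each lies below all 12 others. The group means were 4.43 ± 0.27, 6.01 ± 0.59, 5.66 ± 0.48 and 5.38 ± 0.40 in the same order (SD, n = 4), so that IMQ ears exceeded vehicle ears by 1.58 in wild type and fell short of them by 0.28 in the knockout. Knockout vehicle ears lay 1.23 above wild-type vehicle ears, and knockout IMQ ears 0.63 below wild-type IMQ ears. The difference between the IMQ effects, which chose this gene, was -1.85. From the lowest mean to the highest the groups ran wild-type vehicle, knockout IMQ, knockout vehicle and wild-type IMQ, and the ranges overlap between all neighbours above the first step.

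Tsc22d3 encodes GILZ, a leucine zipper protein that carries part of the anti-inflammatory action of glucocorticoids. Its wild-type arrays read 4.34, 4.31, 3.88 and 4.19 with vehicle and 4.77, 4.99, 5.01 and 5.21 with IMQ. Its knockout arrays read 4.84, 4.96, 5.26 and 5.10 with vehicle and 4.31, 4.61, 4.72 and 4.27 with IMQ. Neither pair of groups overlaps, and the directions are opposite: the gene was high with IMQ in wild type and high with vehicle in the knockout. It rose by 0.82 ± 0.14 in wild-type ears (1.76-fold, adjusted p = 0.00184) and fell by 0.56 ± 0.14 in knockout ears (1.48-fold, adjusted p = 0.00934). The effects differed by -1.38 ± 0.20 (95% interval -1.80 to -0.96, n = 4 per group, adjusted p = 0.00458), and leaving out any one array kept this call (adjusted p = 0.00345 to 0.0156). With vehicle the knockout ears were 0.86 ± 0.14 higher (adjusted p = 0.00963), and with IMQ they were lower by a value that did not pass (-0.52 ± 0.14, adjusted p = 0.231), although those groups do not overlap.

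Klf9, a Krüppel-like transcription factor that glucocorticoids induce in human keratinocytes, was again high in wild-type IMQ and knockout vehicle ears. It read 5.78, 6.23, 6.41 and 6.22 in wild-type vehicle ears and 6.59, 6.82, 6.69 and 6.89 with IMQ. In knockout ears it read 6.70, 6.97, 7.01 and 7.14 with vehicle and 5.85, 6.31, 6.56 and 5.86 with IMQ. Neither pair overlaps, and the directions are opposite. The wild-type difference of 0.59 ± 0.16 missed the threshold (1.50-fold, adjusted p = 0.0561) and passed without wild-type vehicle array 3, knockout IMQ array 3 or knockout IMQ array 4 (adjusted p = 0.0335 to 0.0496). Klf9 fell by 0.81 ± 0.16 in knockout ears (1.75-fold, adjusted p = 0.00191), and the effects differed by -1.40 ± 0.23 (95% interval -1.89 to -0.91, adjusted p = 0.00941), which passed without any one array too (adjusted p = 0.00771 to 0.0283). With vehicle it was 0.80 ± 0.16 higher in the knockout (adjusted p = 0.0355). That call was lost without any one of the 4 wild-type vehicle arrays, wild-type IMQ arrays 2 or 3, or knockout vehicle arrays 2 or 4 (adjusted p = 0.0504 to 0.150).

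Thus 2 of the 8 tested genes were higher in knockout than in wild-type vehicle ears and 0 were lower (1 at an unadjusted p under 0.05), where 0.107% of all genes were called higher and 0.349% lower. Between IMQ-treated ears of the 2 genotypes limma called 0 of the 8, and over all genes 0.0194% were called higher and 0.1% lower. At an unadjusted p under 0.05 there were 4 of the 8, beside 8.24% of all genes. The vehicle arrays enter the difference of effects and the vehicle comparison alike, so these results are not independent of each other. Without knockout vehicle arrays 3 and 4 the differences of effect passed for Tsc22d3 (-1.24, adjusted p = 0.0143) and Klf9 (-1.28, adjusted p = 0.0325). The vehicle differences did not pass in that fit (0.72 and 0.68, adjusted p = 0.0877 and 0.202), nor did the knockout IMQ effects of Tsc22d3 (-0.42, adjusted p = 0.143) and Fkbp5 (0.68, adjusted p = 0.114).

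**Figure D2:**
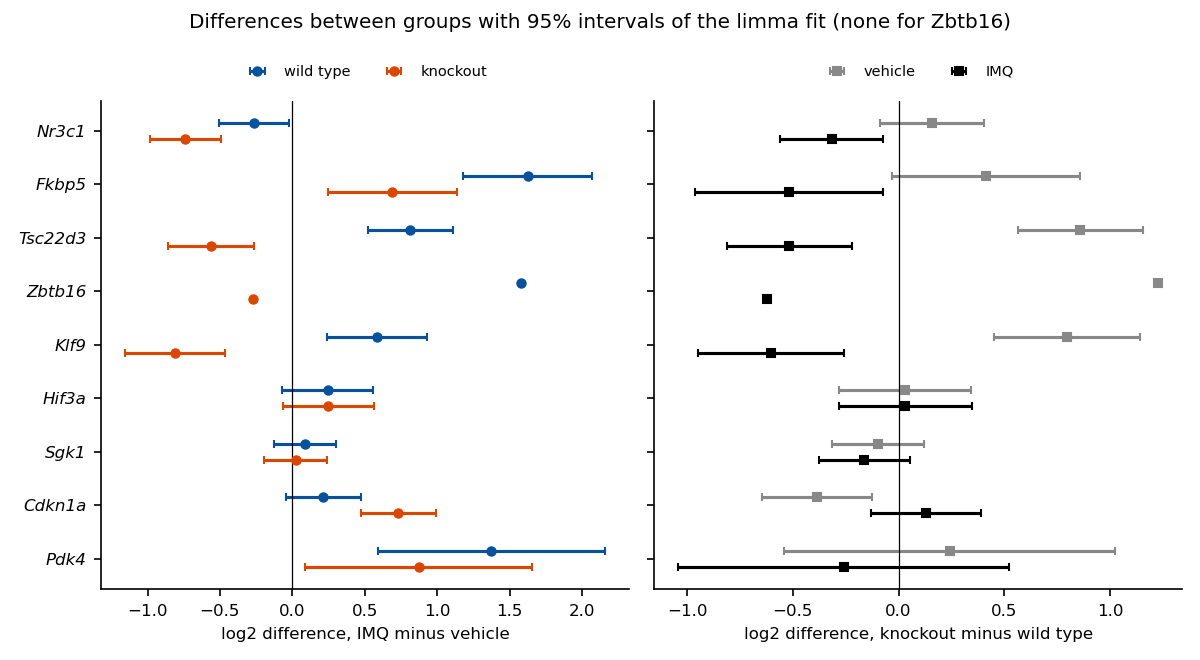
Log2 differences between groups (x axes) for each of the 9 genes (y axis), with IMQ minus vehicle on the left and knockout minus wild type on the right. Points are differences of means of 4 arrays and bars are 95% intervals of the fit, drawn for the 8 tested genes. Tsc22d3 and Klf9 lie on opposite sides of 0 in the 2 genotypes on the left, at 0.82 and -0.56 and at 0.59 and -0.81.

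Hif3a, a hypoxia-inducible factor subunit that can dampen the response to low oxygen and is glucocorticoid-induced in several tissues, lay near the array medians throughout. It ranged from 3.03 to 3.20 in wild-type vehicle, 3.12 to 3.72 in wild-type IMQ, 2.86 to 3.30 in knockout vehicle and 3.09 to 3.76 in knockout IMQ ears, with 7 of 16 arrays above their median. All groups overlap. The IMQ differences were 0.25 in each genotype (95% intervals -0.07 to 0.56, adjusted p = 0.511 and 0.341), and at this level background may hide a change. Of 14 listed hypoxia targets 7 rose in wild type and 8 in the knockout, 0 fell in either at an adjusted or unadjusted p under 0.05, and the difference of effects was called for 0 (1 at an unadjusted p under 0.05).

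Sgk1, a kinase that promotes sodium uptake and cell survival, is the gene with the exact element shown above. Its wild-type arrays read 6.42, 6.05, 6.29 and 6.24 with vehicle and 6.32, 6.47, 6.29 and 6.27 with IMQ. Its knockout arrays read 6.18, 6.14, 6.14 and 6.15 with vehicle and 6.17, 6.05, 6.33 and 6.15 with IMQ. All pairs of groups overlap except wild-type IMQ and knockout vehicle, where every wild-type IMQ array is the higher. No array departs from another by more than 0.5. The IMQ differences were 0.09 (95% interval -0.13 to 0.30, adjusted p = 0.791) and 0.02 (-0.19 to 0.24, adjusted p = 0.934), and the difference of effects was -0.07 (-0.37 to 0.24, adjusted p = 0.916).

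Pdk4, a kinase that shuts pyruvate out of the mitochondrial oxidation pathway and is induced by fasting and by glucocorticoids, was the most variable of the 9. It read 4.52, 4.89, 4.73 and 5.34 in wild-type vehicle ears and 5.82, 5.15, 7.34 and 6.67 with IMQ. In knockout ears it read 5.17, 5.46, 4.21 and 5.61 with vehicle and 5.45, 6.40, 6.19 and 5.90 with IMQ. Both pairs of groups overlap, and wild-type IMQ arrays 3 and 4 are the highest of the 16. The rise in wild type was 1.38 ± 0.37 (2.59-fold, adjusted p = 0.0470), just inside the threshold. It was lost without any one wild-type vehicle array, without wild-type IMQ arrays 1, 3 or 4, and without any one of 5 knockout arrays, which enter through the shared spread (adjusted p = 0.0525 to 0.152). Without wild-type IMQ array 3, the highest, the difference was 1.01. In knockout ears the difference was 0.87 ± 0.37 (adjusted p = 0.144), and the effects differed by -0.50 (95% interval -1.61 to 0.61, adjusted p = 0.774).

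Cdkn1a encodes p21, an inhibitor of cyclin-dependent kinases that answers to p53 as well as to glucocorticoids. It read 8.49, 8.12, 8.19 and 8.05 in wild-type vehicle ears and 8.60, 8.33, 8.42 and 8.36 with IMQ. In knockout ears it read 7.82, 7.84, 7.86 and 7.78 with vehicle and 8.50, 8.48, 8.88 and 8.37 with IMQ. The knockout vehicle arrays lie below all 12 others. Cdkn1a rose by 0.73 ± 0.12 in knockout ears (1.66-fold, adjusted p = 3.67e-04) and differed by 0.22 ± 0.12 in wild type (adjusted p = 0.474). The vehicle difference between genotypes (-0.39, 95% interval -0.65 to -0.13, adjusted p = 0.173) and the difference of effects (0.52, 95% interval 0.15 to 0.88, adjusted p = 0.171) did not pass. Of 17 other p53 targets 1 rose in wild type, 3 rose and 3 fell in the knockout, and the difference of effects was called for 0 (1 higher and 4 lower at an unadjusted p under 0.05).

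Among 34 other genes that glucocorticoids are known to induce, 11 rose with IMQ in wild-type ears and 0 fell at an adjusted or unadjusted p under 0.05, with a median difference of 0.48 where that of all genes was -0.02. The largest rises were those of Lcn2, a siderophore-binding defence protein (2.77), the transcription factor gene Cebpd (1.62), the lipase inhibitor gene Angptl4 (1.40) and the metallothionein gene Mt1 (1.03). Cebpd lay below the array medians with vehicle, where background limits a difference. Inflammatory signals induce Lcn2, Cebpd and the metallothioneins too, so the list is not specific to the hormone. In knockout ears 13 rose and 6 fell, with a median of 0.23. Lcn2 (3.33), Angptl4 (1.44), Mt2 (1.42) and Mt1 (1.31) rose, while Fbxo32, a muscle ubiquitin ligase gene (-1.22), Per1 (-0.90), Klf15 (-0.82), Bcl6 (-0.72), Mertk (-0.71) and Arrdc2 (-0.44) fell.

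The IMQ effect differed between genotypes for 3 of the 34, all lower in the knockout, with a list median of -0.10. At an unadjusted p under 0.05 there were 5 higher and 8 lower, beside 13.1% of all genes in both directions together. With a filter on dim genes 2 were called higher and 5 lower, and with the trend and robust options or with array weights 2 and 4. Per1, a clock gene that glucocorticoids induce directly, read 6.65, 6.84, 6.92 and 6.57 in wild-type vehicle and 7.42, 7.20, 7.33 and 7.46 in wild-type IMQ ears. In the knockout it read 7.44, 7.53, 7.53 and 7.38 with vehicle and 6.31, 6.73, 7.01 and 6.21 with IMQ. The 4 groups thus take the shape seen for Tsc22d3 and Klf9, and neither genotype's groups overlap. Per1 rose by 0.61 ± 0.15 in wild type (adjusted p = 0.0252) and fell by 0.90 ± 0.15 in the knockout (adjusted p = 2.79e-04), a difference of -1.51 ± 0.21 (adjusted p = 0.00420). It was the only gene of the list called in all 5 comparisons, being 0.72 higher in knockout vehicle ears (adjusted p = 0.0341) and lower by 0.79 in knockout IMQ ears (log2 difference -0.79, adjusted p = 0.0454). The fall of Per1 in the knockout and its difference of effects passed without any one array. Its wild-type rise was lost without any one of wild-type vehicle arrays 1 or 4 or wild-type IMQ arrays 1, 3 or 4 (adjusted p = 0.0540 to 0.0899), and its vehicle difference without any wild-type vehicle array or knockout vehicle arrays 1, 2 or 4 (0.0618 to 0.133). Its difference between IMQ ears was lost without any one array other than knockout IMQ array 3, in 15 of 16 fits (0.0529 to 0.160). The effects of Fbxo32 and of Klf15, a Krüppel-like factor of amino acid metabolism, differed by -1.45 ± 0.28 and -1.17 ± 0.23 (adjusted p = 0.0182 and 0.0193). Klf15 was also higher in knockout vehicle ears (0.89 ± 0.16, adjusted p = 0.0201). This call was lost without any one of wild-type vehicle arrays 2 or 3 or knockout vehicle arrays 1, 2 or 4 (adjusted p = 0.0519 to 0.0792). Limma fits of only the groups compared lost the vehicle calls of Per1 and Klf15 (adjusted p = 0.0676 and 0.143). They also lost the Per1 call between IMQ ears (adjusted p = 0.190). The IMQ differences of Klf15 and Fbxo32 in wild type did not pass (0.35 and 0.23, adjusted p = 0.342 and 0.701).

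**Figure D3:**
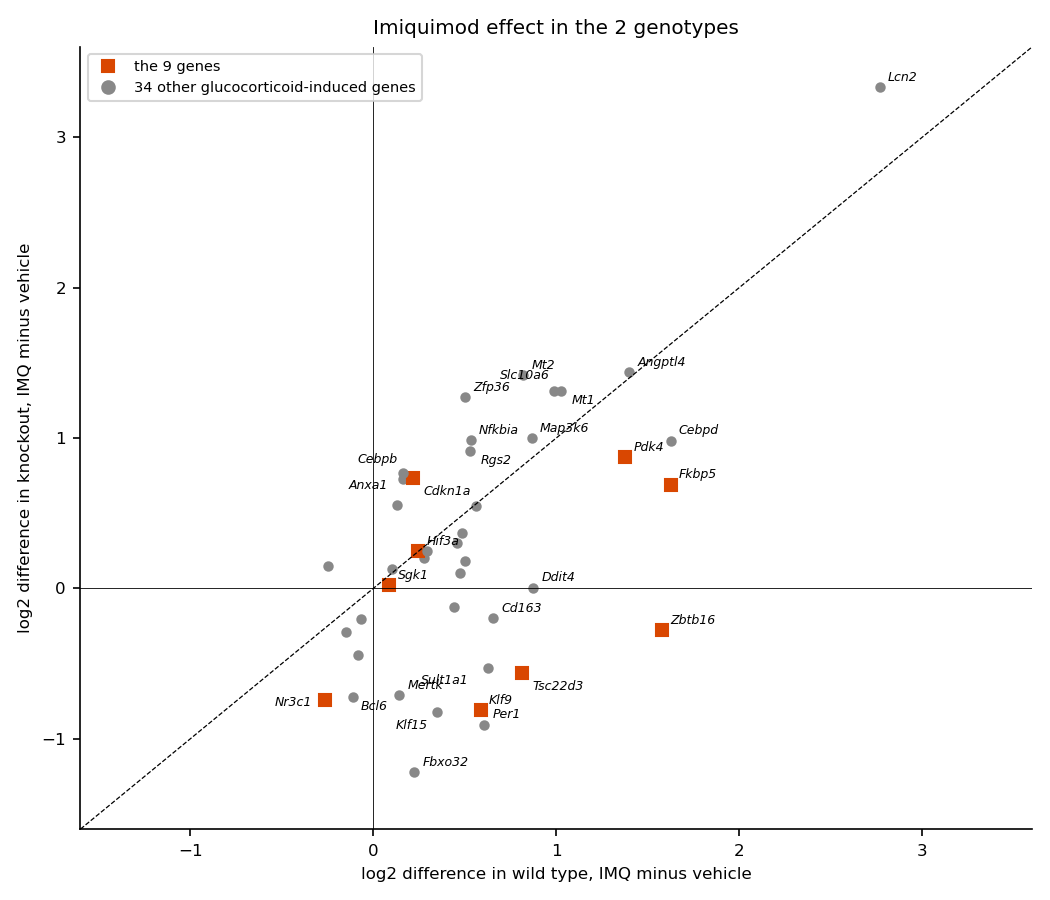
IMQ minus vehicle in wild type (x axis) against the same in the knockout (y axis), both as log2 differences of 4 and 4 arrays, for the 9 genes (squares) and 34 other glucocorticoid-induced genes (circles). On the dashed line both effects are equal. Lcn2 and Angptl4 lie near the line, whereas Tsc22d3, Klf9, Per1 and Fbxo32 lie at the lower right, where the wild-type difference is positive and the knockout difference is negative.

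The receptor depends on chaperones, cochaperones and cofactors, and of 13 such genes 5 rose and 4 fell with IMQ in the knockout. In wild type 1 rose, the chaperone gene Hsp90aa1 (0.43), with 5 higher and 1 lower at an unadjusted p under 0.05. The chaperone genes Ptges3 (0.97), Stip1 (0.84) and Hsp90aa1 (0.76) rose in the knockout, and the cofactor gene Ncoa2 (-0.67) fell. Only Stip1, which links the chaperones Hsp70 and Hsp90, had an effect that differed between genotypes (0.64 ± 0.15, adjusted p = 0.0365), and leaving out 1 array lost this call in 11 of 16 fits (adjusted p up to 0.0880). Among 12 genes of steroid synthesis and activation, H6pd, which supplies the cofactor for local regeneration of active hormone, rose in wild type (0.75 ± 0.14, adjusted p = 0.00295). No other call was made in the 5 comparisons, with 6 further values at an unadjusted p under 0.05. Of these 12 genes 2 lay above the array median on all arrays, and background limits what the dimmer ones can show. Hsd11b1, the enzyme that regenerates active hormone in skin, ranged from 3.06 to 4.00 in wild-type vehicle and 3.85 to 4.19 in wild-type IMQ ears (0.54 ± 0.17, adjusted p = 0.0846).

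Relatives of the 9 genes were read beside them. Over all genes 1.95% were called higher with IMQ in wild type. In the knockout 8.07% were called higher and 6.91% lower, and the counts that follow are descriptions beside these shares. Of 23 such genes 2 rose in wild type, Hif1a (0.84) and Epas1 (0.60), which encode the activating partners of the hypoxia response. In the knockout 2 rose and 5 fell, among them Hif1a (1.61), the pyruvate dehydrogenase kinase gene Pdk2 (-1.21) and Zbtb20 (-0.95), a zinc finger gene of the same family as Zbtb16. Hif1a rose more in the knockout (0.78 ± 0.17, adjusted p = 0.0343), a call lost in 11 of 16 fits that each left out 1 array (adjusted p up to 0.0829). Among the 23 genes 1 effect was called lower in the knockout (-1.17), and 1 gene was called higher in knockout vehicle ears (0.89). These are the values of Klf15, which is also among the 34 glucocorticoid-induced genes above. Of 18 genes of fasting and fatty acid oxidation, the setting in which Pdk4 is best known, 2 rose in wild type and 3 rose and 3 fell in the knockout, and Ppard, a fatty acid sensing receptor gene, had an effect that was larger in the knockout (0.83 ± 0.17, adjusted p = 0.0202; 0.0526 without wild-type vehicle array 1).

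Marker genes of other cells and of the clock moved with these results, and their values are given beside them. The mean level of 30 skeletal muscle genes ranged from 7.21 to 8.09 in wild-type vehicle, 7.22 to 7.95 in wild-type IMQ, 7.85 to 8.86 in knockout vehicle and 6.83 to 7.62 in knockout IMQ ears. In the knockout 29 of the 30 fell with IMQ. With vehicle 1 was called higher in the knockout than in wild type (30 at an unadjusted p under 0.05, beside 12.2% of all genes). The effects differed between genotypes for 14, all lower in the knockout. The array means of the muscle list differed by -1.32 between the knockout groups (exact permutation test, two-sided, p = 0.0286, the smallest that 4 against 4 arrays can give, 0.0980 after adjustment over 8 tests of the muscle and adipocyte lists). The mean level of 20 adipocyte genes ranged from 6.05 to 6.54, 6.46 to 6.99, 6.38 to 7.09 and 6.06 to 6.47 in the same group order, and 2 rose and 1 fell in wild type while 7 fell in the knockout. Epidermal stress genes, of which 9 of 18 rose in wild type and 18 in the knockout, had mean levels of 7.28 to 7.99, 8.63 to 8.93, 4.99 to 7.06 and 9.01 to 9.17, so the knockout vehicle arrays were the lowest.

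Knockout vehicle ears had the highest group mean of both the muscle and the adipocyte list, as they had for Tsc22d3 and Klf9. The wild-type groups, which Tsc22d3 and Klf9 separate, had muscle means of 7.70 with vehicle and 7.72 with IMQ and adipocyte means of 6.32 and 6.65. With the mean levels of both lists as covariates, which themselves move with the groups, the Zbtb16 difference of effects read -0.98 in place of -1.85, its knockout IMQ difference read 0.43 in place of -0.28, and its vehicle difference between genotypes read 0.72 in place of 1.23. For Tsc22d3 and Klf9 the differences of effect read -1.24 and -1.30 and did not pass (adjusted p = 0.361 and 0.423). In that fit limma called 0 of all genes for this contrast, with 2334 at an unadjusted p under 0.05. The fall of Nr3c1 in the knockout (-0.73, adjusted p = 0.0406) and the wild-type rises of Fkbp5 (1.46, adjusted p = 0.00574) and Tsc22d3 (0.75, adjusted p = 0.0383) passed in that fit too. Per1 read -1.63 (adjusted p = 0.349), Klf15 -0.72 (adjusted p = 0.651) and Fbxo32, a gene of muscle wasting, -0.58 (adjusted p = 0.696).

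The mean level of 16 clock genes other than Per1 ranged from 5.93 to 6.09 in knockout vehicle ears, above all other arrays. It ranged from 5.69 to 5.80 in wild-type vehicle, 5.39 to 5.64 in wild-type IMQ and 5.19 to 5.42 in knockout IMQ ears. In knockout against wild-type vehicle ears 4 of the 16 were called higher and 1 lower, with log2 differences of -0.735 to 1.24. The mean thus joins genes that moved in opposite directions. With IMQ 3 of the 16 clock genes rose and 5 fell in wild type, and 2 rose and 10 fell in the knockout. Among the 16 clock genes 7 effects differed between genotypes, all lower in the knockout. Per2, a core clock gene that glucocorticoids also induce, was the only one of the 4 with the largest differences of effect to rise in wild type, from a range of 3.80 to 4.23 with vehicle to 4.48 to 4.87 with IMQ (0.62 ± 0.13, adjusted p = 0.00794). In the knockout Per2 ranged from 4.57 to 4.87 with vehicle and from 3.85 to 4.28 with IMQ, and its effects differed by -1.19 ± 0.18 (adjusted p = 0.00572). The part of the clock, of the hour of collection and of the epidermal stress genes in the results for Zbtb16, Tsc22d3 and Klf9 was not tested. Genes of innate-like T cells and innate lymphoid cells, which use Zbtb16, had mean levels of 3.93 to 4.13 over all 16 arrays, with 6 of 16 measured genes above the array median on all arrays and none at 0. With IMQ 1 of the 16 rose and 3 fell in wild type and 2 rose and 4 fell in the knockout, with log2 differences of -1.19 to 2.71 in the knockout, so the mean joins genes that moved in opposite directions. The part of these cells in the Zbtb16 values was not tested.

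**Figure D4:**
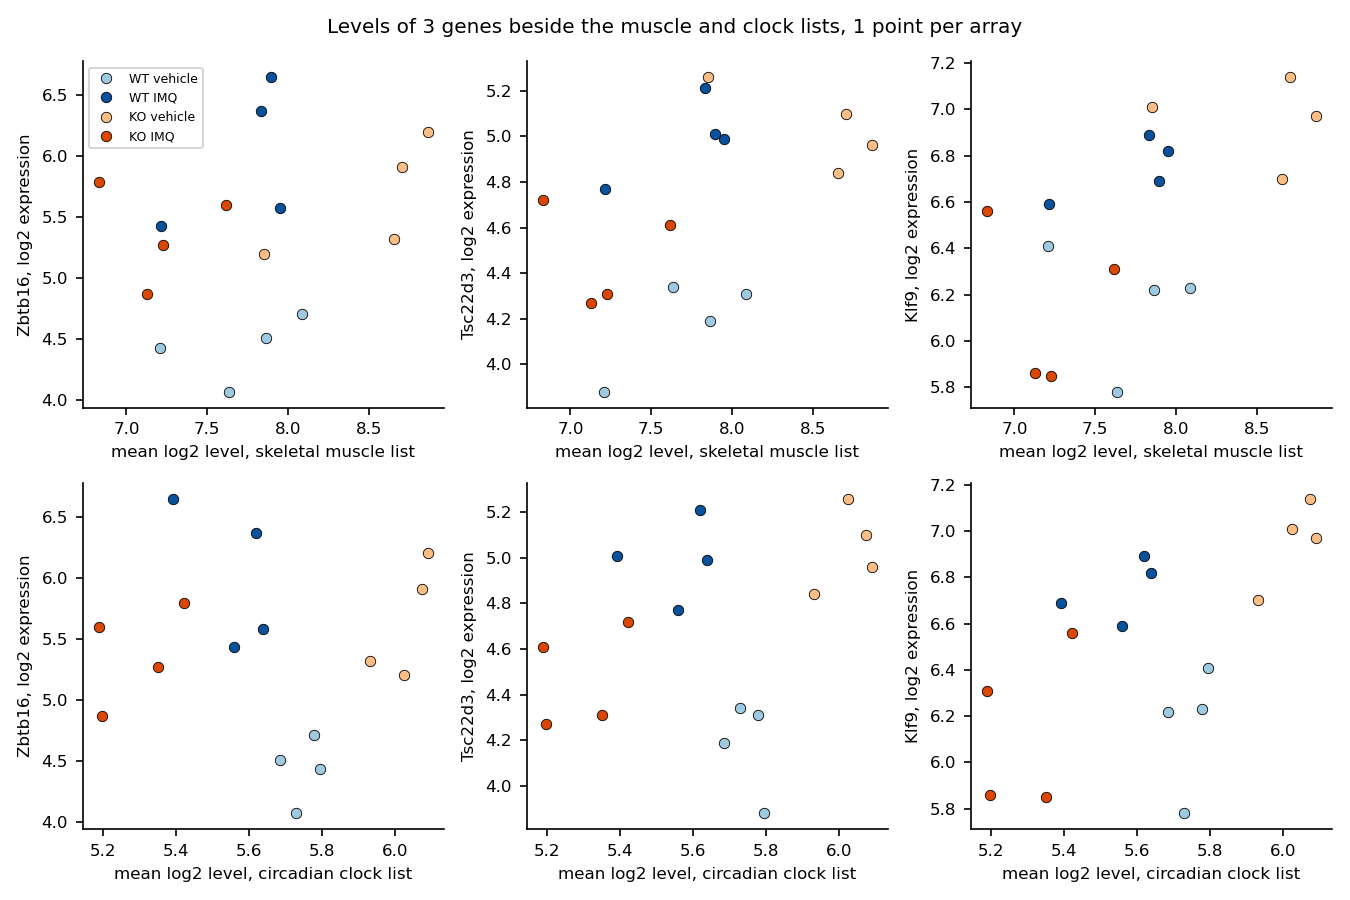
Log2 level of Zbtb16, Tsc22d3 and Klf9 (y axes) against the mean log2 level of the skeletal muscle list (upper x axes) and the circadian clock list (lower x axes), 1 point per array, coloured by group. The knockout vehicle arrays lie to the right in the clock plots, between 5.93 and 6.09, and the wild-type IMQ arrays reach similar heights of Tsc22d3 at clock levels of 5.39 to 5.64.

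Within groups the genes also varied together to different degrees. Over the 16 arrays, taken as deviations from their group means, Zbtb16 correlated with Pdk4 at r = 0.79, with Fkbp5 at 0.69 and with Klf9 at 0.55, and Fkbp5 correlated with Pdk4 at 0.69. Wild-type IMQ arrays 3 and 4 were the highest of their group for Zbtb16, Fkbp5 and Pdk4 alike, with Zbtb16 at 6.65 and 6.37. Tsc22d3 followed Zbtb16 with a value of 0.36, and Sgk1 ran with Cdkn1a (0.58) rather than with Zbtb16 (-0.31). Points of 1 array share its RNA, tissue makeup and normalization, so these values describe the arrays and carry no test.

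**Figure D5:**
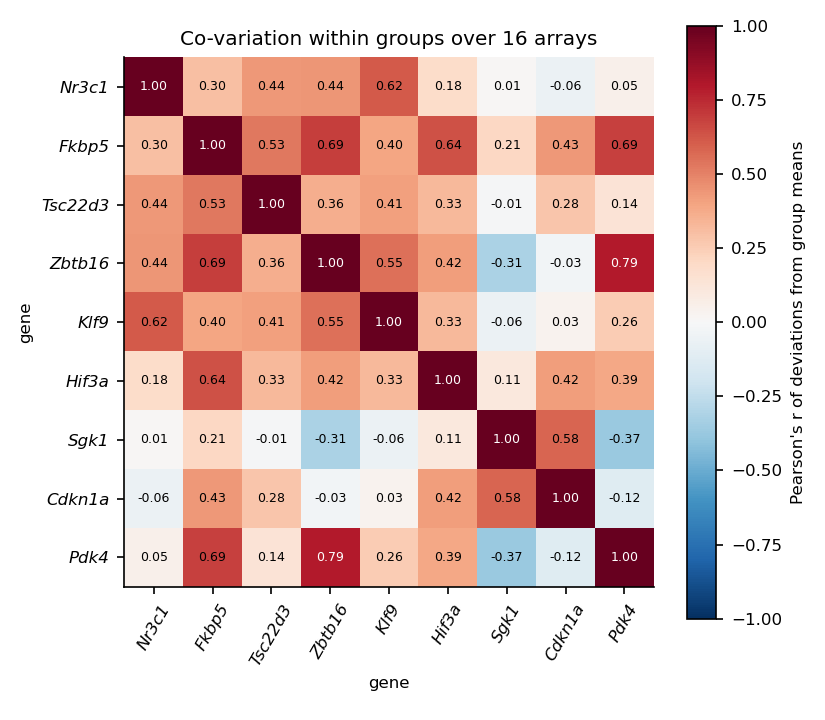
Pearson correlation (colour and printed value) of deviations from the group mean over 16 arrays, for each pair of the 9 genes on both axes. Zbtb16, Fkbp5 and Pdk4 form the warmest block, at 0.69 to 0.79, and the lowest value is that of Sgk1 with Pdk4 (-0.37).

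Over the 16 arrays with group differences included, 12436 named genes with a mean level above the median gene were ranked by their Pearson correlation with Zbtb16. Predicted genes and some families, such as olfactory and vomeronasal receptors and microRNAs, were left out of this ranking. The 5 most alike were Fam126a (0.84), Cidec (0.83), Gdap10 (0.83), Fabp4 (0.83) and Timp4 (0.83). Of these Cidec, a lipid droplet protein gene, and Fabp4, a fatty acid carrier gene, belong to the adipocyte list. Fabp4 ranged from 7.92 to 8.45 in wild-type vehicle, 8.88 to 9.76 in wild-type IMQ, 8.74 to 9.54 in knockout vehicle and 8.30 to 9.18 in knockout IMQ ears, so its lowest group overlaps only knockout IMQ. The most opposed were Dnase1l3 (-0.87), Dmkn (-0.84), Epha4 (-0.83), Megf9 (-0.82) and Lgals3 (-0.82). Of the 8 other genes Tsc22d3 (0.77, rank 28), Fkbp5 (0.77, rank 35), Pdk4 (0.73, rank 59) and Klf9 (0.67, rank 140) came closest, while Nr3c1 (-0.05), Sgk1 (-0.06) and Cdkn1a (0.03) showed little relation to Zbtb16. Zbtb16 was chosen for its pattern over these arrays, so the ranking is a description.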

How the data were processed

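Total RNA of ears was hybridised to Affymetrix Mouse Gene ST 2.1 arrays. The values are log2 expression of 41345 transcript clusters as the authors deposited them, for which the submitters' processing notes name Affymetrix Expression Console; how probes were summarised, with which software version and on which genome build, is not stated in the sources used here. Values run from 1.25 to 13.29 and were used without further normalization. Symbols come from the table that the authors deposited, which names 32471 clusters; 909 genes had several clusters, of which the one with the highest mean level was kept. Group means of all 16 arrays were modelled for 30943 genes with limma 3.58.1 in R 4.3.3 (12 residual and 6.18 prior degrees of freedom). Of the 5 contrasts 2 compare IMQ with vehicle within a genotype, 2 compare the genotypes within a treatment, and 1 compares the IMQ effects of both genotypes. In each, p-values were adjusted over all genes by the Benjamini-Hochberg method and called under 0.05. An error after ± is the SE of a difference or the SD of a group mean. Arrays have no read depth, and their number limits the precision.

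The 9 genes and all gene lists were chosen with earlier results of these data known. All 9 are described; of each list the text gives counts, the median and up to 4 called genes with the largest change per contrast, except that Bcl6, Mertk, Arrdc2 and Hsd11b1 were named after their values were seen and some called genes are not reported here. Array numbers come from the titles. Arrays with the same number deviated from their group means with correlations of -0.083 to 0.105 over 24 pairs, 1 of them over 0.1, so numbers were not treated as pairs. No arrays were identical.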

Additional observations from a re-analysis of the deposited data

Results flagged for a closer look

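The effect of IMQ on 2 of the 8 tested genes differed between genotypes in a test of the difference itself. For Tsc22d3 the difference, knockout minus wild type, was -1.38 (limma, adjusted p = 0.00458), with every wild-type IMQ array above and every knockout IMQ array below the vehicle arrays of its genotype. For Klf9 it was -1.40 (adjusted p = 0.00941), with the same separation of arrays.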

How the results depend on the processing

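No call of the 8 tested genes changed direction while passing under any alternative. The counts of calls over all genes were 1126, 4634, 141, 37 and 387 for IMQ in wild type, IMQ in knockout, genotype with vehicle, genotype with IMQ and the difference of effects. With muscle and adipocyte means as covariates they were 657, 856, 2, 10 and 0. A filter on dim genes gave 357 for genotype with vehicle and 723 for the difference, and eBayes with trend and robust options gave 343, 85 and 652 for the last 3 comparisons. Array weights gave 237 for genotype with vehicle, and fits of only the groups compared gave 15 and 11 for the genotype comparisons, where Tsc22d3 and Klf9 were no longer called with vehicle (adjusted p = 0.0676 and 0.122). Leaving out each array in turn gave 37 to 474, 7 to 80 and 149 to 824 for the last 3. The replicate block, on numbers that do not pair the arrays, gave 240 for genotype with vehicle; under it Fkbp5 in the knockout (adjusted p = 0.0529) and Pdk4 in wild type (0.0575) were not called and Klf9 in wild type (0.0227) was, and no other call of the 8 genes changed. Fkbp5 in the knockout was not called under array weights (0.0556) or in the fit of only its groups (0.0693), nor was Pdk4 in wild type under quantile normalization (0.0594), the trend and robust options (0.0823) or only its groups (0.0734). Klf9 in wild type was called under the filter, median centring, the trend and robust options, array weights and only its groups (0.0303 to 0.0395). With the covariates the knockout effects of Tsc22d3, Klf9, Fkbp5 and Cdkn1a (adjusted p = 0.388, 0.108, 0.210 and 0.310), the wild-type effect of Pdk4 (0.0705) and the vehicle differences of Tsc22d3 and Klf9 (0.343 and 0.401) were not called. The covariates themselves move with the groups, and the cause of these lost and gained calls was not tested. Hif3a, near the array medians, is limited by signal over background.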

Other observations

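Other cells and tissues of the ear were read through lists of their marker genes, as values beside the 9 genes. Of 15 neutrophil genes 9 rose with IMQ in wild type and 10 in the knockout. S100a8 and S100a9 of this list are also in the list of epidermal stress genes. On all arrays 6 of the 15 lay above the array median, and background limits what the dimmer ones can show. Of 16 measured monocyte and macrophage genes 7 rose in wild type and 5 in the knockout. Of 16 measured cartilage genes 2 fell in wild type and 10 in the knockout. Of 13 fibroblast genes 3 rose and 1 fell in wild type, and 1 rose and 4 fell in the knockout. The mean level of 4 measured haemoglobin and erythroid genes, markers of blood left in the tissue, ranged from 3.81 to 4.97 in knockout vehicle ears. It ranged from 3.66 to 3.95 in wild-type vehicle ears, although limma called 0 of the 4 between these groups (1 at an unadjusted p under 0.05). Only 1 of the 4 lay above the array median on all arrays, so background limits this mean. With IMQ 1 of the 4 fell in the knockout (4 at an unadjusted p under 0.05) and 0 in wild type (1 unadjusted).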
